A study of Mus musculus with 3 samples.

Results

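The comparison described here is that of peripheral blood G-MDSCs from mice bearing tumors for 2 weeks (2Ws) with those from normal mice, 1 library a side. The genes were chosen by annotation and level and not by their difference. Of 26655 genes in the files, 16100 were autosomal and protein-coding in GENCODE M21, and 5409 of these had at least 5 FPKM in 1 of the 2 libraries. FPKM is the fragment count of a gene scaled to its length and to the size of the library. Of the 5409 genes, 5068 passed this level in both libraries, 210 only through the normal library and 131 only through the 2Ws library. A total of 10691 autosomal protein-coding genes stayed under it and are not described.

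The study followed how G-MDSCs, the granulocytic branch of myeloid-derived suppressor cells, alter as a tumor progresses. The series holds 3 libraries: normal, 2Ws and 3Ws, the last from mice that had borne tumors for 3 weeks. All mice were C57BL/6J, 8 to 10 weeks old at purchase, and tumors were B16F10 melanoma cells placed under the skin. The cells were CD11b+Gr1+ cells of peripheral blood, taken with an AutoMACS sorter and an isolation kit for these cells per the labels, or with an antibody to Ly6G on magnetic beads per the methods. Normal mice carried no tumor and received no other agent. How many mice were pooled in a library is not given in the sources used here, and 1 field of the labels gives the tumor times in months where the descriptions give weeks. No difference between 1 library and another can be tested against the spread between mice, so the values below compare 2 libraries and not 2 conditions. Intervals are exact 95% Clopper-Pearson intervals on recovered reads, and they cover counting error only.

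Neutrophils and G-MDSCs are loaded in the bone marrow with granule proteins, which are made in stages as the cell matures, and leave for the blood with most of that transcription finished. Type I interferon binds its receptor on these cells and acts through a transcription factor complex that includes STAT2 and IRF9 and binds the interferon-stimulated response element in the promoters of interferon-stimulated genes (ISGs). ISG products block viral RNA, proteins and entry, and several feed back on the pathway itself. G-MDSCs are known for suppressing T cells with arginase, reactive oxygen and prostaglandins.

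Several facts of the libraries stand before the results. Reads recovered from the FPKM values gave totals of 17325747 in the normal, 16549246 in the 2Ws and 17075753 in the 3Ws library. The neutrophil genes S100a8, S100a9, Csf3r, Cxcr2 and Ly6g were abundant in all 3, at 8385, 10195 and 14548 FPKM in turn for S100a8, the calcium-binding alarmin. Xist, the RNA of the inactive X chromosome of females, was at 0.00966, 24.7 and 0 FPKM in the normal, 2Ws and 3Ws libraries. Ddx3y, a Y-linked helicase, was at 19.9 FPKM in the normal library, had 0 reads in the 2Ws library, where 3 reads would give 0.0349 FPKM, and was at 23.1 FPKM in the 3Ws library. Thus the 2Ws library carried female RNA and the other libraries male RNA, although the methods name female mice for the implants. Sex and tumor therefore cannot be told apart in any comparison of 2Ws with normal below. The ribosomal RNA gene CT010467.1 was at 506, 81.1 and 52.6 FPKM in the same order.

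Shorter genes tended to be lower and longer genes higher in the 2Ws library. The median log2 ratio of 2Ws over normal was -0.09 in the quintile of genes with the shortest exon length, -0.05, -0.03 and 0.00 in the next quintiles and 0.07 in the longest. Markers of other cell types were read in both libraries. Summed over their lists, monocyte markers were at 6268 FPKM in the normal and 6109 FPKM in the 2Ws library, tissue macrophage markers at 3070 and 2912, B cell markers at 853 and 1076, platelet markers at 241 and 291, and eosinophil markers at 234 and 306. Neutrophils also make Lyz2, at 3742 and 3787 FPKM of the monocyte sums, and Ccl6, at 1143 and 1226 FPKM of the macrophage sums. These sums therefore follow a few abundant genes, and the median log2 ratio of the macrophage list was -0.47. T cell and NK cell markers were low, at 10.8 and 21.5 FPKM for T cells and 18.5 and 16.4 FPKM for NK cells, and 0 of either list passed the filter. Of 5 melanoma markers in the files, 3 were at 0 in both libraries. In RNA from a whole sorted sample, fewer cells of a type and less RNA per cell cannot be told apart.

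**Figure D1:**
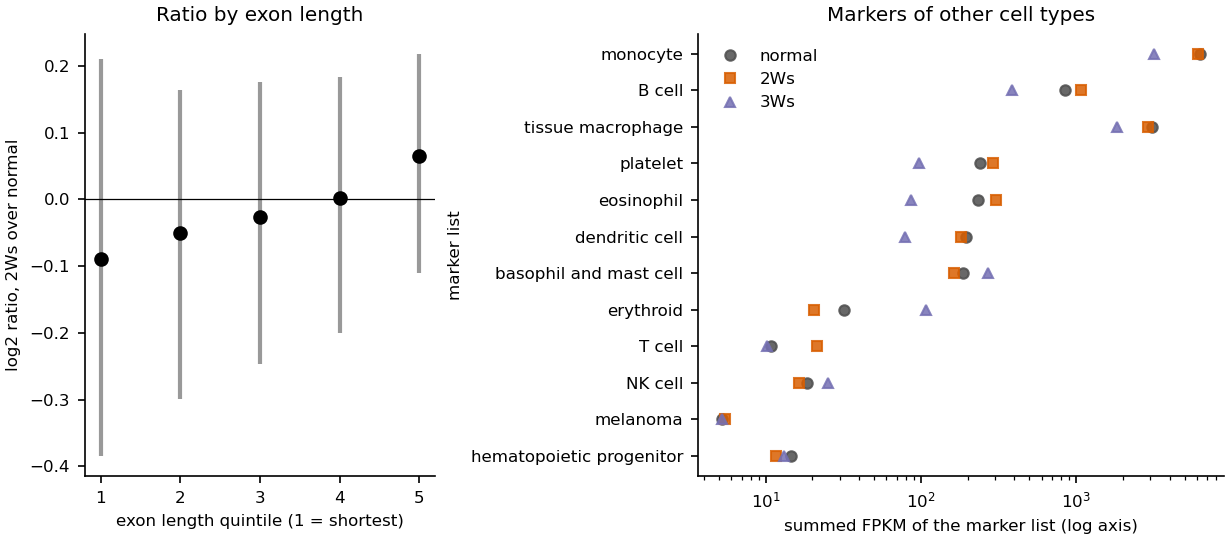
Left, the median log2 ratio of 2Ws over normal (point) with its 10th to 90th percentile (line) in each quintile of the 5409 genes by exon length. Right, the summed FPKM of each marker list on a log axis, 1 point per library. The 2Ws points lie near the normal ones for monocyte and macrophage markers and above them for B cell, platelet, eosinophil and T cell markers. Lyz2 and Ccl6, which neutrophils also make, are large parts of the monocyte and macrophage sums.

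Most genes differed little. On the log2(FPKM + 1) scale the median ratio of 2Ws over normal was -0.01, the 10th percentile -0.26 and the 90th percentile 0.20. In 4849 genes, or 89.6%, the levels lay within 1.25-fold of each other. At least 2-fold lower in the 2Ws library were 30 of the 5409 genes (0.555%), and at least 2-fold higher were 8 (0.148%). At 1.5-fold, 104 genes were lower (1.92%) and 40 higher (0.74%). The counts per gene list below are to be read beside these shares. With values relative to Actb the split at 1.5-fold was 70 lower and 65 higher, and with ratios centred within exon length quintiles it was 80 lower and 52 higher. Of the 30 lower genes 12 passed the filter only through the normal library, and of the 8 higher genes 4 passed only through the 2Ws library. The genes just inside the 2-fold bound were Mrc1 at a log2 ratio of -1.01 and Myl9 at 1.07, and just outside it lay Mgl2 at -0.999 and P2rx1 at 0.998. By counting error alone, the interval of the ratio left out 1 in 2765 genes.

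**Figure D2:**
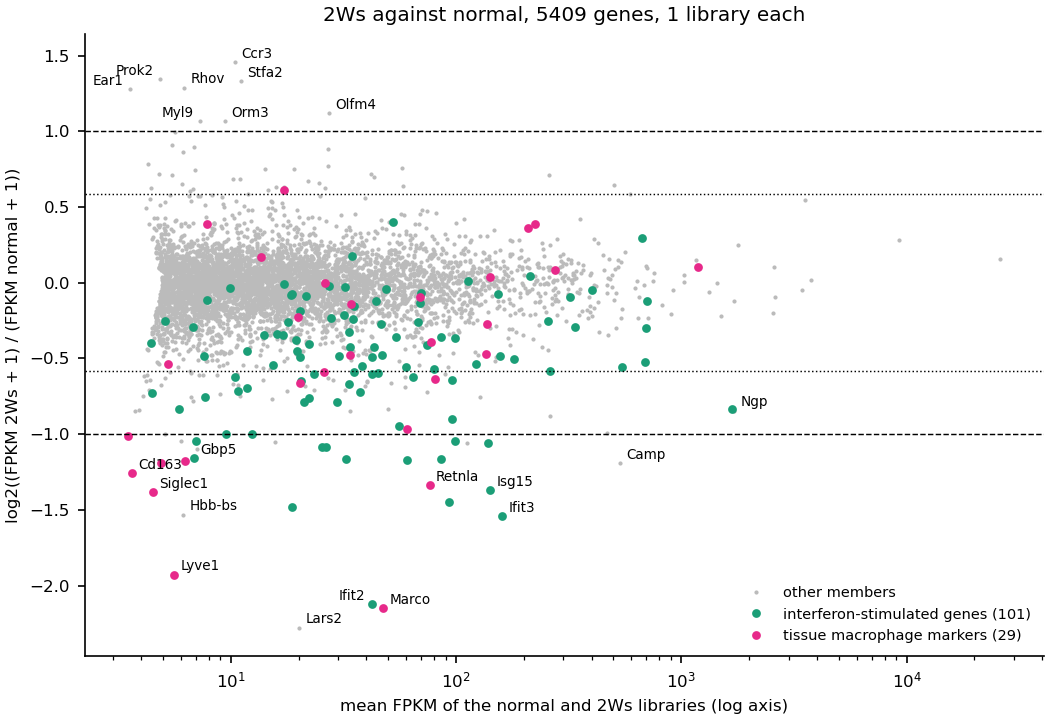
Each point is 1 of the 5409 genes, with the mean FPKM of the normal and 2Ws libraries on a log axis and the log2 ratio of 2Ws over normal. Dashed lines mark 2-fold and dotted lines 1.5-fold. The 101 interferon-stimulated genes (green) lie mostly below 0, the 29 tissue macrophage markers (pink) run from -2.15 to 0.61, and the genes past 2-fold higher carry neither colour.

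The ISGs made up the largest named share of the lower genes. Of the 30 genes at least 2-fold lower in the 2Ws library, 14 were on the ISG lists (46.7%), where 1.87% of all genes described are on them. Of the 104 genes at least 1.5-fold lower 37 were on these lists, and of the 40 at least 1.5-fold higher 0 were. Over all 101 ISGs the median log2 ratio was -0.48, and 96 lay below 0. The lists hold ISGs that the study itself picked from these libraries, so their direction is not independent evidence.

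Promoter sequence was described as a feature that the FPKM filter did not use. ISGs are known for the response element in their promoters. A high share with its core among them is therefore not separate evidence. Of the 14 ISGs at least 2-fold lower 12 had a RefSeq promoter window, and 9 of these held the core of the interferon-stimulated response element, while Ifit2, the lowest ISG, Oasl1 and Ifi47 did not. Stretches are given for the 8 ISGs with the lowest ratio whose window (build GRCm38.p6) holds the core before the start site, to show where it lies. The core was searched as GAAANNGAAA on both strands, and every match is in capitals, overlapping ones merged. Each stretch is 60 bases long, runs 5′ to 3′ on the strand of the gene, and lies within 250 bases before the RefSeq start site. For Gbp5 that site is at base 142496934, whereas GENCODE has the start of the gene at base 142493978, so its stretch lies after the GENCODE start.
Ifit3 (chr19:34583382-34583441, plus strand): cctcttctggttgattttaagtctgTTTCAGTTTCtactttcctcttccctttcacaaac
Ifit1bl1 (chr19:34602038-34602097, minus strand): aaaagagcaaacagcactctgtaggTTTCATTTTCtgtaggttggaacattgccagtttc
Ifit1 (chr19:34640779-34640838, plus strand): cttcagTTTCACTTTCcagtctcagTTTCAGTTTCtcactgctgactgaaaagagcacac
Isg15 (chr4:156200850-156200909, minus strand): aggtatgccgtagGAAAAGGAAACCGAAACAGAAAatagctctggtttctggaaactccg
Ifit3b (chr19:34607778-34607837, plus strand): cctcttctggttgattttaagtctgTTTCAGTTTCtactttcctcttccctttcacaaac
Gbp5 (chr3:142496744-142496803, plus strand): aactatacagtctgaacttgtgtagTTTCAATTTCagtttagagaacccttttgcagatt
Ifi207 (chr1:173741816-173741875, minus strand): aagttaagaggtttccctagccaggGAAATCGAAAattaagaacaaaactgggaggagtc
Rsad2 (chr12:26456538-26456597, minus strand): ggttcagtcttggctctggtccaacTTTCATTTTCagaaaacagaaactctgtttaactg

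The Ifit3 and Ifit3b stretches are the same in all 60 bases, as the genes are near-identical copies, and the Isg15 window holds 3 overlapping matches. Over the whole window of 300 bases the core was in 3.44% of the 32851 windows of the table and in 4.06% of the 4310 genes matched to it. It was in 41.9% of 86 matched ISGs. Split by ratio, it was in 18 of the 31 matched ISGs at least 1.5-fold lower and in 18 of the 55 others. Among matched genes that are not on the ISG lists, it was in 3 of 52 at least 1.5-fold lower. These 52 include some interferon-induced genes, such as Fcgr1. It was in 0 of 33 matched genes at least 1.5-fold higher. A match is a description of the letters and not a measured binding site, and a window with 0 matches says only that these letters are not in it.

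The Ifit genes, whose products hold back foreign RNA from the ribosome, were the family furthest down. Their 6 genes lie side by side on chromosome 19, and all were at least 1.5-fold lower in the 2Ws library, 5 of them at least 2-fold, with a median log2 ratio of -1.46. Ifit2 was at 69.4 FPKM in the normal library, 15.2 in the 2Ws and 8.17 in the 3Ws library, or 4.58-fold lower at 2Ws (4.27 to 4.91). Ifit3 was at 239, 81.5 and 49.5 FPKM, or 2.94-fold lower (2.80 to 3.08), and Ifit1 at 136, 49.3 and 37.4 FPKM, or 2.76-fold lower (2.63 to 2.90). The normal library was the highest and the 3Ws library the lowest for each of these genes. Ifit1bl1 was at 28.1, 9.40 and 4.07 FPKM and Ifit3b at 118, 52.4 and 23.6 FPKM. Ifit1bl2, the mildest of the 6, was at 51.5, 33.6 and 29.8 FPKM, a log2 ratio of -0.60. Reads shared between near-identical copies may be split in ways the counting does not show, so the separate values of Ifit3 and Ifit3b are uncertain.

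Among the ISGs with other effector roles, 23 of 75 were at least 1.5-fold lower and the median log2 ratio was -0.41. Isg15, a ubiquitin-like protein joined to other proteins during the interferon response, was at 205 FPKM in the normal, 78.9 in the 2Ws and 66.5 in the 3Ws library, or 2.60-fold lower at 2Ws (2.42 to 2.80). Rsad2, the antiviral enzyme viperin, was at 188, 90.1 and 56.7 FPKM, or 2.09-fold lower (2.03 to 2.15). Both tumor libraries were lower than the normal one, and the step from normal to 2Ws was the larger part of the difference. Slfn5, a Schlafen family protein, was at 133, 64.0 and 49.9 FPKM, and Ifi207, of the DNA-binding Ifi200 family, at 34.9, 15.9 and 11.5 FPKM. Usp18, which strips Isg15 from proteins and damps the interferon receptor, was at 36.4, 16.7 and 11.1 FPKM, a log2 ratio of -1.08. Slfn4, the most abundant ISG, was at 2139.8 FPKM in the normal, 1202 in the 2Ws and 1512 in the 3Ws library, or 1.78-fold lower at 2Ws (1.76 to 1.80). Slfn4 thus was lowest at 2Ws. Not all abundant ISGs were lower: Slfn2 was at 734, 675 and 811 FPKM, Ifitm6 at 408, 395 and 984 FPKM, and Ifitm1, which keeps viruses from fusing with the cell, at 602, 740.5 and 1570.5 FPKM.

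Interferon-induced guanosine triphosphatases attack the vacuoles of intracellular microbes. All 12 described lay below 0, 7 were at least 1.5-fold lower and the median log2 ratio was -0.61. Ifi47 was at 45.2, 19.6 and 16.9 FPKM in the normal, 2Ws and 3Ws libraries, or 2.31-fold lower at 2Ws (2.12 to 2.51), and Gbp5 at 9.89, 3.88 and 4.27 FPKM. Mx1 was at 9.80, 4.24 and 1.30 FPKM, a log2 ratio of -1.04. Gbp2 and Irgm2, the most abundant, were less apart, at 117 and 74.8 FPKM for Gbp2 and 112 and 86.8 FPKM for Irgm2 in the normal and 2Ws libraries. Of the OAS genes, which make an oligonucleotide messenger on sensing viral RNA, only the catalytically inactive Oasl1 was past 1.5-fold, at 84.5, 36.9 and 29.3 FPKM. Oasl2 was at 371, 303 and 313 FPKM, Oas2 at 182, 130.5 and 137 FPKM, and Oas1a at 49.6, 48.2 and 49.2 FPKM.

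The sensors and transcription factors that precede the ISGs were less lowered than the ISGs. Of 24 genes 4 were at least 1.5-fold lower (Irf7, Stat2, Zbp1 and Dhx58), 21 lay below 0 and the median log2 ratio was -0.18, or -0.10 relative to Actb. Irf7, the factor that amplifies interferon production, was at 152, 72.3 and 52.8 FPKM, or 2.098-fold lower at 2Ws (2.03 to 2.17). Stat2, a subunit of the factor that binds the response element, was at 43.6, 23.8 and 26.6 FPKM, or 1.83-fold lower (1.74 to 1.93). Its partner Irf9 lay closer to normal, at 54.0, 46.2 and 44.6 FPKM. The receptor chain genes Ifnar1, at 35.5, 33.1 and 34.7 FPKM, and Ifnar2, at 25.7, 22.5 and 21.4 FPKM, were within 1.25-fold between libraries normal and 2Ws. The kinase Jak1 was at 106, 109.7 and 115 FPKM and Tlr9, a receptor for DNA in endosomes, at 5.73, 5.02 and 1.31 FPKM.

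Antigen presentation genes were lower by smaller amounts. Of 20 genes of MHC class I presentation 18 lay below 0, with a median log2 ratio of -0.29, and Nlrc5, the transactivator of the class, was the only one past 1.5-fold, at 19.5, 11.0 and 9.91 FPKM. Tap1, the peptide transporter, was at 71.5, 48.3 and 34.3 FPKM. The most abundant members, B2m at 2724, 2370.3 and 1762 FPKM and H2-D1 at 1613, 1382 and 1004 FPKM, were close to normal at 2Ws. Of 9 MHC class II genes 7 lay below 0, with 0 past 1.5-fold and a median of -0.35. H2-Ab1 was at 176, 125 and 39.5 FPKM and Cd74, the invariant chain, at 530, 417 and 110 FPKM, so that most of their difference from normal came at 3Ws. H2-DMb2 lay the other way, at 20.9, 28.4 and 4.79 FPKM. Class II genes are made by B cells and macrophages, whose markers lay in opposite directions at 2Ws, and their part in these values was not tested.

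**Figure D3:**
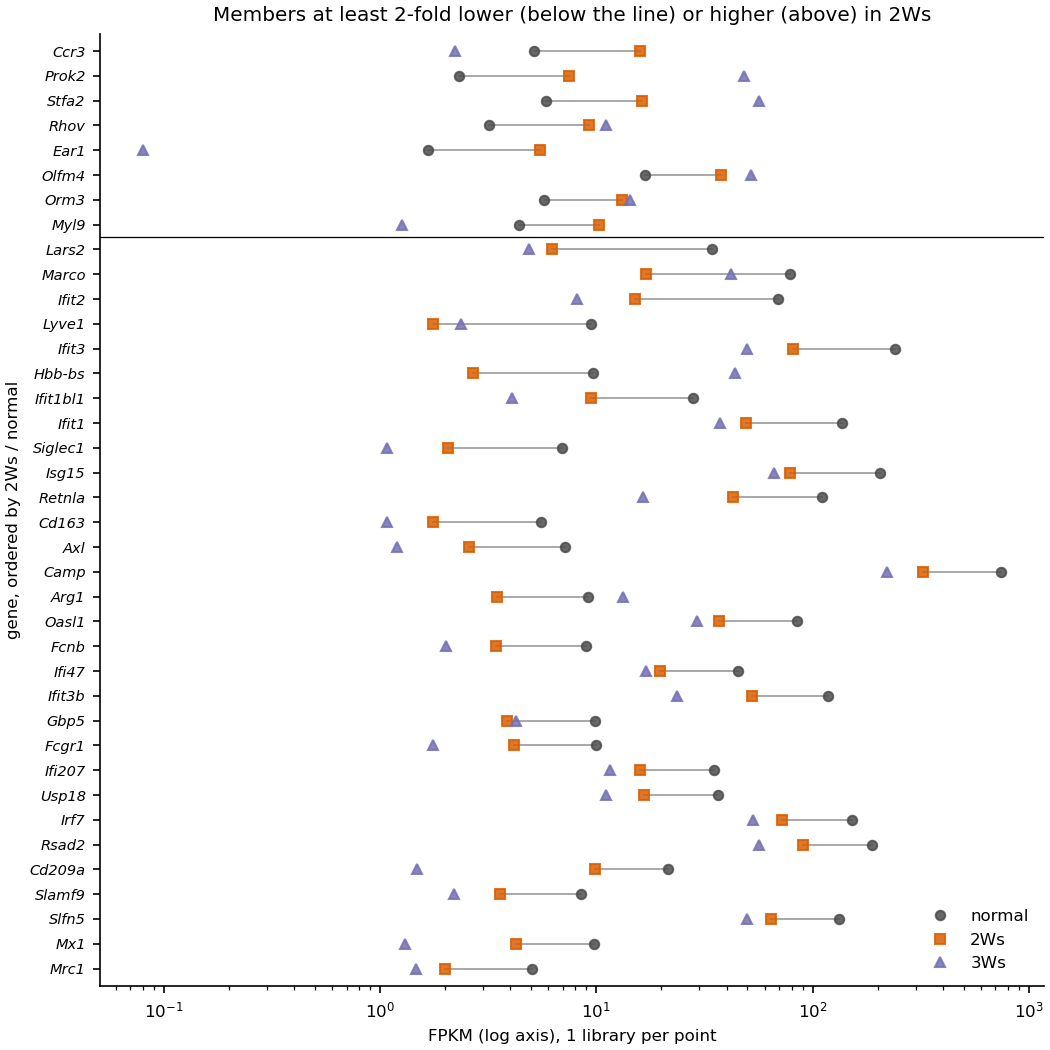
FPKM (log axis) in the normal, 2Ws and 3Ws libraries for the 30 genes at least 2-fold lower (below the line) and the 8 at least 2-fold higher (above it) in the 2Ws library, ordered by ratio, 1 library per point. For Ccr3, Ear1 and Myl9 the 3Ws point falls below normal, while for Prok2, Stfa2, Rhov, Olfm4 and Orm3 it lies above 2Ws.

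Tissue macrophage genes were the second group among the lower genes. Of 29 described 12 were at least 1.5-fold lower, 8 of them at least 2-fold, and 1 was at least 1.5-fold higher. Over all genes described 1.92% were at least 1.5-fold lower, 0.555% at least 2-fold lower and 0.74% at least 1.5-fold higher. The median log2 ratio of the list was -0.47. Of the 8 genes, Lyve1, Siglec1, Cd163, Axl, Arg1 and Mrc1 passed the filter only through the normal library, where they were higher. Marco and Retnla passed it in both libraries. Marco, a scavenger receptor of marginal zone and alveolar macrophages, was at 78.4 FPKM in the normal, 16.9 in the 2Ws and 41.8 in the 3Ws library, or 4.63-fold lower at 2Ws (4.22 to 5.09). The 2Ws library was thus the lowest of the 3. Lyve1, the hyaluronan receptor of perivascular macrophages and lymphatic vessels, was at 9.49, 1.76 and 2.37 FPKM, or 5.39-fold lower (4.28 to 6.88). Siglec1, the sialic acid receptor CD169, was at 6.97, 2.06 and 1.07 FPKM, and Cd163, the hemoglobin scavenger receptor, at 5.56, 1.75 and 1.07 FPKM. Retnla, a resistin-like protein of alternatively activated macrophages, was at 110.1, 42.9 and 16.5 FPKM, or 2.56-fold lower (2.29 to 2.87). Axl, a receptor for apoptotic cells, was at 7.19, 2.58 and 1.20 FPKM and Mrc1, the mannose receptor, at 5.03, 1.99 and 1.46 FPKM. Arg1, at 9.12, 3.47 and 13.2 FPKM, was above normal at 3Ws. Apart from Marco and Arg1, the 3Ws level of these genes stayed far under normal.

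The macrophage list was not uniform. Timd4, a phosphatidylserine receptor of resident macrophages, was at 39.4, 28.1 and 5.61 FPKM, and C1qb, a subunit of complement C1q, at 158, 114 and 40.8 FPKM, both past 1.25-fold and under 1.5-fold at 2Ws. Apoe, the lipid carrier, was at 266, 282 and 96.0 FPKM, Prg4, the lubricant proteoglycan made by peritoneal macrophages, at 194, 253 and 71.2 FPKM, and Ednrb, an endothelin receptor, at 26.1, 26.1 and 4.61 FPKM. Cxcl13, the B cell attracting chemokine, was at 13.5, 21.1 and 2.34 FPKM, or 1.56-fold higher at 2Ws (1.34 to 1.83). These genes were at or above normal at 2Ws and far below it at 3Ws. Ccl6, a chemokine that neutrophils also make, was the most abundant member of the list, at 1143, 1226 and 1146 FPKM.

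Some markers of monocytes and dendritic cells were also among the lower genes. Of 24 monocyte markers 5 were at least 1.5-fold lower and 0 higher, and the median log2 ratio was -0.13. Ccr2, the receptor that brings monocytes out of the marrow, was at 29.2, 17.5 and 6.29 FPKM, or 1.67-fold lower at 2Ws (1.58 to 1.76), and Ly6c2, the antigen of classical monocytes, at 92.5, 55.8 and 51.9 FPKM. Ms4a4c was at 28.2, 16.2 and 3.71 FPKM, and it is also interferon-induced. The most abundant markers did not share this: Lyz2, a lysozyme also made by neutrophils, was at 3742, 3787 and 1301 FPKM, and Csf1r, the receptor of monocytes and macrophages, at 149, 129.9 and 104 FPKM. Of 7 dendritic cell markers 2 were at least 1.5-fold lower and 0 higher, 2 lay above 0, and the median log2 ratio was -0.19. Cd209a, a lectin of monocyte-derived dendritic cells, was at 21.5, 9.85 and 1.48 FPKM, or 2.18-fold lower at 2Ws (1.88 to 2.54). The other lower marker, Bst2, is also on the ISG lists, and Ly6d lay the other way, at 30.0, 41.4 and 4.17 FPKM. Fcgr1, the high-affinity IgG receptor, which is carried by monocytes and macrophages and induced by interferon, was at 10.01, 4.15 and 1.76 FPKM. Slamf9, a surface receptor of the SLAM family, was at 8.48, 3.59 and 2.19 FPKM. The lower ISGs, macrophage and monocyte genes thus appeared in the same library, and the part of these cells in the ISG values was not tested. Of the 101 ISGs 2 are themselves on a marker list of other cell types.

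**Figure D4:**
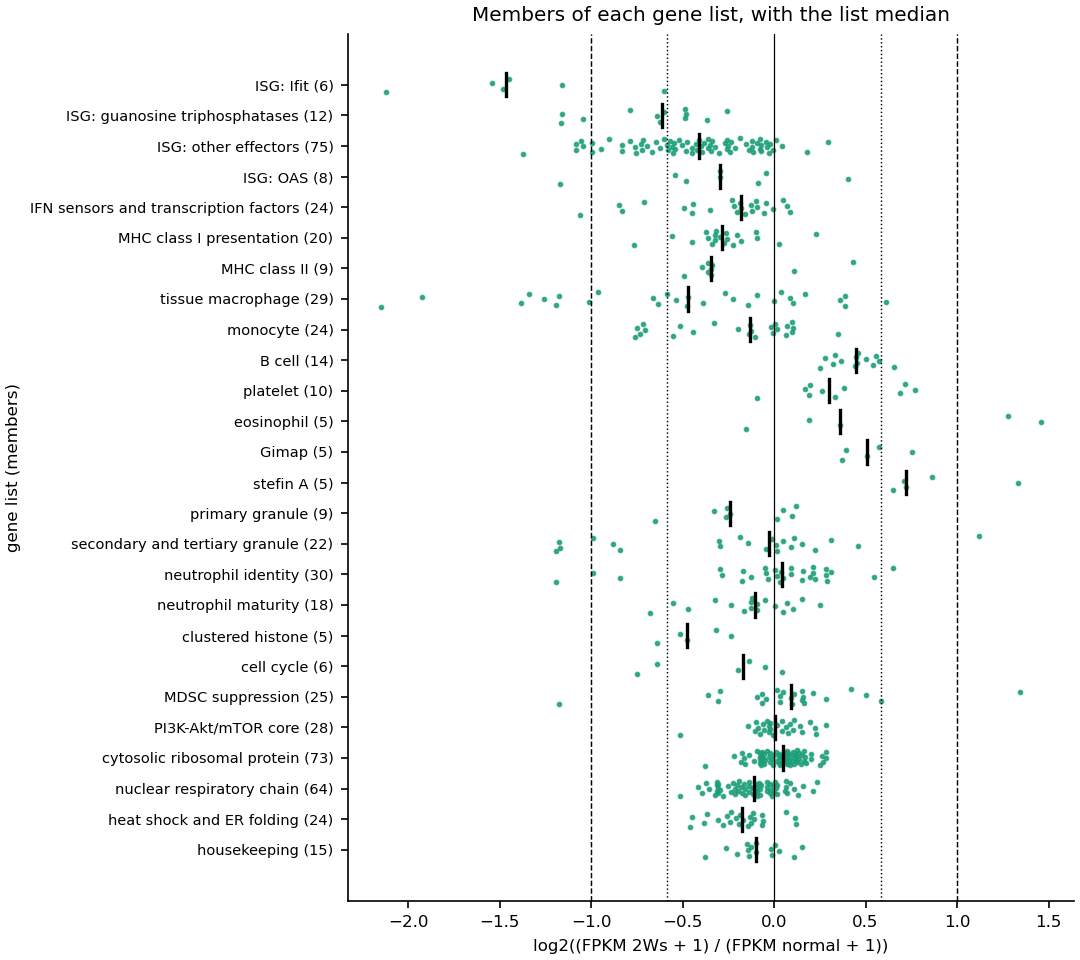
Log2 ratio of 2Ws over normal for the members of 26 gene lists (points) with the median of each list (bar); dashed lines mark 2-fold and dotted lines 1.5-fold. The Ifit genes lie furthest to the left, macrophage markers spread from -2.15 to 0.61, and B cell, platelet, Gimap and stefin A genes lie to the right.

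Granule proteins of neutrophils split into groups. Of 22 secondary and tertiary granule genes 6 were at least 1.5-fold lower and 1 higher, with a median log2 ratio of -0.03, which was 0.07 relative to Actb and 0.04 centred within length quintiles. Camp, the antimicrobial cathelicidin, was at 743 FPKM in the normal, 325 in the 2Ws and 222 in the 3Ws library, or 2.29-fold lower at 2Ws (2.204 to 2.37). Ltf, the iron-binding lactoferrin, was at 626, 314 and 249.9 FPKM, or 1.99-fold lower (1.96 to 2.03). Ngp, the neutrophilic granule protein, was at 2201, 1226 and 1197 FPKM, or 1.80-fold lower (1.77 to 1.82). The normal library was the highest for all 3, with little between 2Ws and 3Ws for Ngp. Fcnb, a ficolin made by immature neutrophils, was at 8.97, 3.43 and 2.01 FPKM. Chil3, a chitinase-like protein, had another course, at 339, 183 and 444 FPKM.

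Other granule proteins were not lower. Lcn2, the siderophore-binding lipocalin, was at 492, 524 and 997 FPKM, Mmp8, a collagenase, at 484, 501 and 1264 FPKM, and Mmp9, a gelatinase, at 1097, 1218 and 1111 FPKM. Olfm4, an olfactomedin present in only some neutrophils, was at 16.8, 37.7 and 52.2 FPKM, or 2.25-fold higher at 2Ws (2.07 to 2.44). Of 9 primary granule genes 1 was past 1.5-fold, Lyz1 at 49.2, 31.0 and 10.2 FPKM. Mpo and Elane, the enzymes of promyelocyte granules, stayed under the filter, Mpo with 26 reads in the normal and 1 in the 2Ws library and Elane at 1.88 and 0.491 FPKM. Cebpe, the factor that drives secondary granule genes, was at 26.6, 16.3 and 7.57 FPKM, or 1.64-fold lower (1.43 to 1.88), and Cebpa, which drives early granulopoiesis, was at 15.7, 10.4 and 7.73 FPKM. The receptor for G-CSF, Csf3r, was at 3479, 3362 and 3271 FPKM, Cxcr2, the chemokine receptor of mature neutrophils, at 1027, 1031 and 1539.7 FPKM, and Ly6g, the antigen of the sort, at 125, 114 and 190.2 FPKM. Csf3r, Cxcr2 and Ly6g therefore differed little between normal and 2Ws. Of the 30 neutrophil identity genes 26 lay within 1.5-fold, 3 were lower and 1 was higher. Over all genes described 1.92% were lower and 0.74% higher, so this list passed the fold more often.

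Genes of dividing cells were few. Of 40 cell cycle genes 6 passed the filter and 2 were at least 1.5-fold lower: Ccnb2, a mitotic cyclin, at 5.39, 2.80 and 2.49 FPKM and Stmn1, which takes microtubules apart, at 5.56, 3.21 and 2.07 FPKM. Ccnb2 and Stmn1 passed the filter only through the normal library, where they were higher. Mki67, the proliferation antigen, was at 10.7, 10.3 and 10.7 FPKM. The summed level of the list was 113 FPKM in the normal, 83.5 in the 2Ws and 64.5 in the 3Ws library. All 5 clustered histone genes lay below 0, with a median log2 ratio of -0.48, and Hist1h2bc, the most abundant, was at 175, 122 and 107 FPKM.

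Of the 8 genes at least 2-fold higher, 5 were higher still at 3Ws. Prok2, a secreted prokineticin that G-CSF induces in neutrophils and that promotes vessel growth in mouse tumors, was at 2.32 FPKM in the normal, 7.44 in the 2Ws and 48.2 in the 3Ws library, or 3.21-fold higher at 2Ws (2.47 to 4.21). Stfa2, an intracellular inhibitor of cysteine cathepsins, was at 5.87, 16.3 and 56.6 FPKM. Rhov, an atypical small guanosine triphosphatase, was at 3.19, 9.23 and 11.1 FPKM, or 2.90-fold higher (2.28 to 3.71). Orm3, an acute-phase orosomucoid, was at 5.75, 13.1 and 14.2 FPKM, so that for Rhov and Orm3, as for Olfm4 above, most of the step was present at 2Ws. The stefin A genes lay together: all 5 described were at least 1.5-fold higher, with a median log2 ratio of 0.72. Stfa2l1, the most abundant, was at 389.5, 611 and 882 FPKM, or 1.57-fold higher (1.495 to 1.65), Gm5483 at 196, 321 and 639.8 FPKM, Stfa1 at 31.3, 52.3 and 97.2 FPKM and Stfa3 at 4.06, 8.21 and 19.0 FPKM. These are near-identical copies, so the split of reads among them is uncertain.

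The remaining higher genes were lower than normal at 3Ws. Ccr3, the eotaxin receptor of eosinophils, was at 5.13 FPKM in the normal, 15.8 in the 2Ws and 2.22 in the 3Ws library, or 3.09-fold higher at 2Ws (2.70 to 3.54). Ear1, an eosinophil ribonuclease, was at 1.66, 5.46 and 0.0802 FPKM, or 3.29-fold higher (1.99 to 5.66). Ear1 shares sequence with other Ear genes, and it rests on 21 reads in the normal and 66 in the 2Ws library. Of the 5 eosinophil genes described 4 lay above 0 and 2 were past 1.5-fold, with a median log2 ratio of 0.36. Siglecf was at 17.1, 19.7 and 22.98 FPKM and Alox15, which macrophages also make, at 183, 235 and 53.8 FPKM, while Ear2, another eosinophil ribonuclease, lay the other way, at 22.4, 20.002 and 6.19 FPKM. Myl9, a smooth muscle and platelet myosin light chain, was at 4.37, 10.2 and 1.26 FPKM, or 2.34-fold higher (1.81 to 3.05). P2rx1, the ATP-gated channel of platelets and neutrophils, was at 3.43, 7.85 and 1.25 FPKM, just under 2-fold on the log2(FPKM + 1) scale.

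Platelet and lymphocyte genes were also higher at 2Ws. Of 10 platelet genes 9 lay above 0 and 3 were at least 1.5-fold higher, with a median log2 ratio of 0.30. Ppbp, the platelet basic protein, was at 19.6, 34.2 and 5.57 FPKM, while Pf4, the most abundant, was at 71.4, 66.8 and 11.1 FPKM. All 14 B cell genes lay above 0, with a median of 0.45, and 1 was past 1.5-fold, Ms4a1 (CD20) at 18.9, 30.3 and 3.71 FPKM. Cd79a, of the B cell receptor, was at 68.2, 94.2 and 13.3 FPKM. Of the Gimap genes, lymphocyte guanosine triphosphatases, all 5 lay above 0, with a median of 0.51 and Gimap3 at 14.0, 24.3 and 5.27 FPKM. Jchain, which joins immunoglobulin M and A chains in plasma cells, was at 3.51, 7.47 and 3.84 FPKM. The summed level of each of these lists was highest in the 2Ws library, and how many such cells the sorts held was not measured. Hbb-bs, an adult beta globin, had the opposite course, at 9.62, 2.68 and 43.6 FPKM, and it has a near-identical copy in Hbb-bt.

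**Figure D5:**
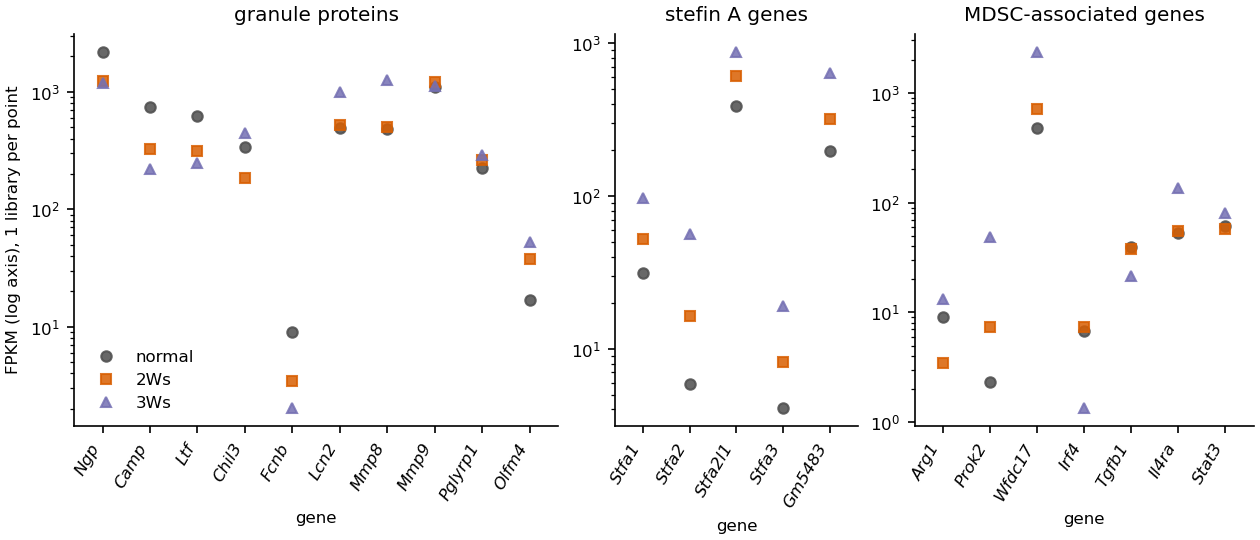
FPKM (log axis) in the normal, 2Ws and 3Ws libraries for granule proteins, stefin A genes and genes associated with suppression by MDSCs, 1 library per point. Ngp, Camp, Ltf and Fcnb are highest in the normal library, the 5 stefin A genes step up from normal to 2Ws to 3Ws, and Irf4, Tgfb1, Il4ra and Stat3 are near normal at 2Ws.

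Most genes linked to suppression by MDSCs lay within 1.5-fold of normal at 2Ws, as did most of all genes described. Of 25 described 1 was at least 1.5-fold lower and 1 higher, Arg1 and Prok2. Each passed the filter only through the library where it was higher, Arg1 through the normal and Prok2 through the 2Ws library. Over all genes described the shares were 1.92% lower and 0.74% higher. The median log2 ratio of the list was 0.09, or 0.19 relative to Actb. Arg1, the arginase that depletes arginine, was at 9.12 FPKM in the normal, 3.47 in the 2Ws and 13.2 in the 3Ws library, or 2.63-fold lower at 2Ws (2.14 to 3.24). Macrophages also make Arg1, and their part in its value was not tested. Tgfb1, the suppressive cytokine, was at 39.3, 38.1 and 21.4 FPKM, and Irf4, a transcription factor, at 6.83, 7.44 and 1.34 FPKM. Il4ra, the interleukin 4 receptor chain, was at 52.9, 54.7 and 136 FPKM and Stat3 at 61.1, 57.1 and 79.9 FPKM. For these 4 genes the 2Ws library was within 1.25-fold of normal. Wfdc17, an antiprotease-like secreted protein of myeloid cells, was at 472, 708 and 2362 FPKM, just under 1.5-fold higher on the log2(FPKM + 1) scale, and Cd274, the checkpoint ligand PD-L1, was at 61.0, 47.3 and 27.8 FPKM.

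The 28 core genes of the PI3K-Akt/mTOR pathway, which couples growth factors to metabolism, had a median log2 ratio of 0.01, with 0 past 1.5-fold in either direction. Akt1 was at 111, 105 and 98.4 FPKM and Pik3cd, the leukocyte catalytic subunit, at 133, 131 and 129 FPKM. Ddit4, an mTOR inhibitor that stress and glucocorticoids induce, was the furthest from normal, at 10.4, 6.99 and 10.4 FPKM. RNA levels do not show phosphorylation.

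Chemokines, receptors and feedback genes showed single differences. Of 28 chemokine receptor and adhesion genes 3 were at least 1.5-fold lower and 1, Ccr3, higher. Cxcr1, a receptor of neutrophil chemokines, was at 33.1, 20.99 and 69.0 FPKM, and Itgam, the CD11b chain of the sort, lay at 114, 141 and 136 FPKM. Of 18 ligands Csf1, the macrophage growth factor, was at 72.5, 46.7 and 67.6 FPKM, and Cxcl2, which draws neutrophils, at 2.90, 5.73 and 24.3 FPKM, or 1.97-fold higher at 2Ws (1.55 to 2.53). Il1b, the most abundant ligand, was at 1635, 1947 and 1885 FPKM. Nfkbia, the inhibitor of NF-kB, was at 108, 70.7 and 114 FPKM, or 1.52-fold lower (1.44 to 1.61), and the only one of 17 NF-kB genes past 1.5-fold. Atf3, a stress-induced repressor, was at 49.5, 31.1 and 13.9 FPKM, and the only one of 22 immediate early genes past 1.5-fold, with Fos at 305, 408 and 384 FPKM. Per2, a repressor of the circadian clock, was at 9.34, 14.5 and 26.6 FPKM, whereas Per1 was at 20.99, 14.6 and 36.5 FPKM. Of 21 pattern receptors 2 were past 1.5-fold, the C-type lectins Clec4a1 and Clec4a3, while Cd14, the coreceptor for endotoxin, was at 55.6, 69.3 and 207 FPKM.

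Lists of basic cell functions held small differences. The medians were 0.05 for 73 ribosomal protein genes, -0.11 for 64 nuclear genes of the respiratory chain, -0.10 for 37 proteasome genes, -0.18 for 24 heat shock and endoplasmic reticulum folding genes and -0.12 for 27 glycolysis and hypoxia genes. In the same order 27, 49, 29, 21 and 20 genes lay below 0, where 2852 of all 5409 did. The heat shock and folding list was thus shifted about as far as the interferon sensors and transcription factors above. Of these 225 genes 1 was past 1.5-fold, Psmg4, a proteasome assembly chaperone, at 5.62, 3.05 and 1.58 FPKM. Over all genes described 1.92% were at least 1.5-fold lower and 0.74% higher. Short genes are common in the respiratory chain, and centred within length quintiles its median was -0.03. Of 16 cholesterol and lipid genes Scd1, the desaturase of fatty acids, was the only one past 1.5-fold, at 10.3, 18.01 and 2.93 FPKM, with Srebf2, the factor that drives cholesterol synthesis, at 15.9, 11.2 and 8.13 FPKM.

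Lars2, the mitochondrial leucyl-tRNA synthetase, had the lowest ratio of all 5409 genes. It was at 34.1 FPKM in the normal, 6.25 in the 2Ws and 4.86 in the 3Ws library, or 5.46-fold lower at 2Ws (5.13 to 5.82). The ribosomal RNA gene CT010467.1 was lower by a like factor, 6.24-fold at 2Ws (6.01 to 6.47), and whether the values of Lars2 hold ribosomal reads was not tested. The 3Ws library gave a wider spread over the same 5409 genes than the 2Ws library, with 432 at least 2-fold lower and 86 at least 2-fold higher than normal and a median log2 ratio of -0.18. Both comparisons use the same normal library, so they are given side by side only.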

How the data were processed

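Blood G-MDSCs gave 1 RNA-seq library per condition. Per the labels, alignment used HISAT2 2.1.0 and the tool list also names Bowtie2 2.2.3, with GRCm38 as the build. The authors deposited FPKM per Ensembl gene, in which the fragments of a gene are divided by its length and the library size. With strand use and annotation release not given in the sources used here, overlapping or antisense genes may therefore hold each other's reads. Conditions were taken from the sample descriptions. The normal library is titled N1 while its column is named N2.

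Genes were named through GENCODE M21, and 67 of 26655 were not named. Ratios were log2((FPKM + 1)/(FPKM + 1)), with 2-fold and 1.5-fold rules, on autosomal protein-coding genes whose FPKM reached 5 in the normal or the 2Ws library. The pseudocount of 1 understates differences of low genes. The study's own test between libraries was not repeated, since 1 library per condition leaves no spread to test against. FPKM multiplied by exon length gave reads up to a factor, and the factor that made most products whole (to within 0.01) was taken as the depth of a library. This held for 4398 of the 5409 genes (81.3%), 27 of the 30 lower and 6 of the 8 higher. Intervals of the other genes rest on rounded products. Reads come from fragments without molecular identifiers.

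The genes and the 47 lists were chosen with earlier results of these data known. Named were the 12 highest and 20 lowest ratios, per list the 2 most abundant genes and the 2 with the largest difference, every gene past 2-fold, and Ly6g, S100a8, S100a9, Csf3r, Cxcr2, Xist and Ddx3y as checks of the libraries. A few genes that this rule names are not reported here. Further list members given as examples, CT010467.1, Mpo, Elane, Jchain, Psmg4, P2rx1 and Mgl2 were chosen after their values were seen. Promoter windows of RefSeq (GRCm38.p6), 250 bases before to 50 after a start site, were matched by symbol, the window nearest to the GENCODE start of the gene being used. Alternatives were other pseudocounts, filters, scalings and gene sets and an exact binomial test on recovered reads. The steps were tested on simulated data. Software was Python 3.11.15, with scipy 1.17.1 for intervals, pandas 2.3.3 and numpy 2.4.6 for tables and matplotlib 3.10.9 for figures.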

Additional observations from a re-analysis of the deposited data

How the results depend on the processing

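Counts at the fold rules depended on the filter. With a minimum of 1 FPKM the 2-fold rule gave 13 higher genes, and the 1.5-fold rule 79 higher and 175 lower. Without a filter it gave 13 higher at 2-fold and 89 higher and 181 lower at 1.5-fold. With a minimum of 10 FPKM it gave 5 higher and 19 lower genes at 2-fold and 25 higher at 1.5-fold. Relative to Actb 65 genes were at least 1.5-fold higher. The other 72 of 82 recalculations stayed within 1.5 times the reported count or within 0.1 of the reported median: the number at least 2-fold lower then ran from 20 to 36, and the median of the ISGs from -0.49 to -0.38. Ratios centred within exon length quintiles and genes with whole reads alone were chosen after seeing the data. They gave 28 and 27 genes at least 2-fold lower and 9 and 6 at least 2-fold higher. No paired analysis was possible because each condition has 1 library. No replicate could be left out for the same reason. Neither the spread between mice nor the effect of sex can be had from these libraries. Genes with few reads, such as Gm10964 with 11 reads in the normal and 5 in the 2Ws library, have intervals wider than the 1.5-fold rule.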
